A study of Homo sapiens and Canis lupus familiaris with 27 samples.

Results

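The response of the canine prostate carcinoma line CT1258 to PDA-66 was compared with that of the human prostate carcinoma line PC-3. PDA-66 is an indolylmaleimide. The comparison was made as a difference of 2 responses at each time: PDA-66 against DMSO in CT1258, minus PDA-66 against DMSO in PC-3. It used 17 of the 27 samples of the series, picked by their labels as CT1258 or PC-3 and not by any measured value. In CT1258 there were 3 samples with the solvent alone (0.15% DMSO), 3 exposed for 12 h and 3 exposed for 24 h to PDA-66 at 15 µM. In PC-3 there were 2 solvent samples, 3 exposed for 12 h and 3 exposed for 24 h at the same dose. The DMSO samples of both lines were labelled as 24 h controls, and they served as the control for both times. A further PC-3 control was not analysed here. RNA was sequenced and counted per gene in each species' own table, and the tables were joined by gene symbol. There were 16028 genes for CT1258 and 23708 for PC-3, of which 14436 symbols were in both, and 8703 genes had enough counts in both lines to be tested.

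Each species was represented by 1 cell line, so dog against human and line against line cannot be told apart. The samples of a group were described by the authors as separately prepared biological replicates, so p-values measure the spread between preparations of 1 line. Many indolylmaleimides are ATP-competitive kinase inhibitors. Glycogen synthase kinase 3, a kinase that restrains β-catenin and many other substrates, is a well known target of such compounds. For PDA-66 itself, the authors cite earlier work in which it depolymerized microtubules. PC-3 came from a bone metastasis and is known to lack functional p53. Cells that stop in mitosis accumulate transcripts of cyclin B, Aurora kinases and spindle motors, which are normally made in G2 and M phase, while stress kinases, the antioxidant factor NRF2 and the amino acid stress factor ATF4 each drive their own sets of targets.

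Total counts were 19909616 to 20976950 in the CT1258 DMSO samples, 7203534 to 8325867 in the 6 CT1258 PDA-66 samples and 14650839 to 18091755 in the 8 PC-3 samples. The CT1258 controls were thus 2.64 times as deep as the treated CT1258 samples on average. CT1258 DMSO replicate 2 stood apart from its group, with a chi-square per degree of freedom of 48.5 and 48.9 against the other controls, compared with 3.53 between those 2. The 2 PC-3 controls differed from each other almost as much, at 38.2. PC-3 PDA-66 24 h replicate 3 lay at 18.1 and 10.3 from the others of its group.

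Markers of the labelled tissue were checked in both lines as CPM, a gene's count divided by the library total and multiplied by 1000000. Levels are comparable within a gene and line, since they were not divided by gene length and the lines were counted against different annotations. In CT1258 the epithelial genes EPCAM, CLDN4 and CLDN7 did not exceed 0.265 CPM in any of 9 samples, and ESRP1, an epithelial splicing factor, lay at 10.9 to 19.2 CPM. The prostate genes TMPRSS2 and ACPP were at 0 in CT1258, and SLC45A3 was at 13.3 to 28.1 CPM. LUM, a stromal proteoglycan, was at 265 to 429 CPM in CT1258 and at most 0.260 CPM in PC-3. Other joined fibroblast and smooth muscle markers did not follow it throughout. MYH11 was at 25.2 to 37.0 CPM in CT1258, but COL3A1, ACTA2 and THY1 did not exceed 0.297 CPM there. COL3A1 reached 6.02 CPM and ACTA2 1.51 CPM in PC-3. The sum of this list in CT1258 was thus mostly LUM. In PC-3, CLDN4 was at 282 to 551 CPM and HOXB13, a prostate homeobox factor, at 243 to 775 CPM. Of 9 epithelial markers 4 were among the joined symbols, and of those ESRP1 alone passed 1 CPM in CT1258. The other members of the list were not joined. Whether low canine counts came from annotation or mapping was not tested, so these markers cannot decide the epithelial origin of CT1258. Leukocyte markers summed to at most 6.04 CPM in CT1258 and 131 CPM in PC-3. Some marker sums moved with treatment. In PC-3 the prostate luminal markers summed to 768 to 824 CPM in the controls and 266 to 284 CPM after 12 h, and in CT1258 the fibroblast and smooth muscle markers to 293 to 339 CPM and 378 to 463 CPM. The part of such shifts in the responses was not tested. In these bulk samples fewer cells of a type and less RNA per cell cannot be told apart.

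The 2 lines responded differently at a large share of genes. At 12 h the difference of responses was called at 2876 of 8703 genes, 33% of those tested, with 1474 higher and 1402 lower in CT1258. At 24 h it was called at 2042 genes, 23.5%, with 1034 higher and 1008 lower. A gene was called at an adjusted p under 0.001 by edgeR's quasi-likelihood test in 1 fit over all 17 samples, with p-values adjusted over all tested genes by the method of Benjamini and Hochberg. At an unadjusted p under 0.05 the counts were 5494 (63.1%) and 4898 (56.3%). Without CT1258 DMSO replicate 2 the counts were 3188 and 2295. When counts were scaled by library size alone, the median PC-3 response moved by 0.12 on the log2 scale at both times, and the split was 1236 higher against 1672 lower at 12 h and 812 against 1357 at 24 h.

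More genes were called in CT1258 than in PC-3 in the uncorrected counts, and this order turned round with the GC and length trends described below removed. CT1258 had 4215 called genes at 12 h (48.4%), 24.1% of all genes higher and 24.3% lower, and 3330 at 24 h (38.3%), 18.6% higher and 19.7% lower. PC-3 had 2617 (30.1%), 14.6% higher and 15.5% lower, and 1918 (22%), 10.8% higher and 11.2% lower. Among the 8113 genes with a GC value the calls were 3940 in CT1258 and 2450 in PC-3 at 12 h before the correction and 3326 and 3350 after it, and at 24 h 3099 and 1803 before and 2594 and 2777 after. The 1396 genes called in both lines at 12 h made up 33.1% of the CT1258 calls and 53.3% of the PC-3 calls. The 858 called in both at 24 h made up 25.8% and 44.7%. Of the genes called in both, 71.7% moved the same way at 12 h and 76.8% at 24 h. Across all 8703 genes the responses of the lines had a Pearson r of 0.21 at 12 h and 0.24 at 24 h. Of the 2876 differences at 12 h, 395 were at genes called in opposite directions, 133 (1.53%) at genes called the same way, 1490 (17.1%) at genes called in CT1258 alone, 694 (7.97%) in PC-3 alone and 164 (1.88%) in neither. At 24 h these were 199, 77 (0.885%), 1059 (12.2%), 550 (6.32%) and 157 (1.8%). The correlations run over genes, which share libraries and are not independent replicates.

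At 12 h, 1001 genes (11.5%) were called in the same direction in both lines, 494 higher (5.68%) and 507 lower (5.83%), and 395 (4.54%) in opposite directions. At 24 h the same direction was called at 659 genes (7.57%), 332 higher (3.81%) and 327 lower (3.76%), and opposite directions at 199 (2.29%). Scaled by library size alone, the shared genes split into 667 higher and 382 lower at 12 h and 465 and 234 at 24 h. Opposite genes were 224 higher in CT1258 and lower in PC-3 (2.57%) against 171 the other way (1.96%) at 12 h, and 111 (1.28%) against 88 (1.01%) at 24 h. With library size alone these splits became 182 against 240 and 83 against 143. Leaving out 1 sample moved the opposite count at 24 h from 129, without CT1258 PDA-66 24 h replicate 3, to 267, without CT1258 DMSO replicate 2.

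**Figure D1:**
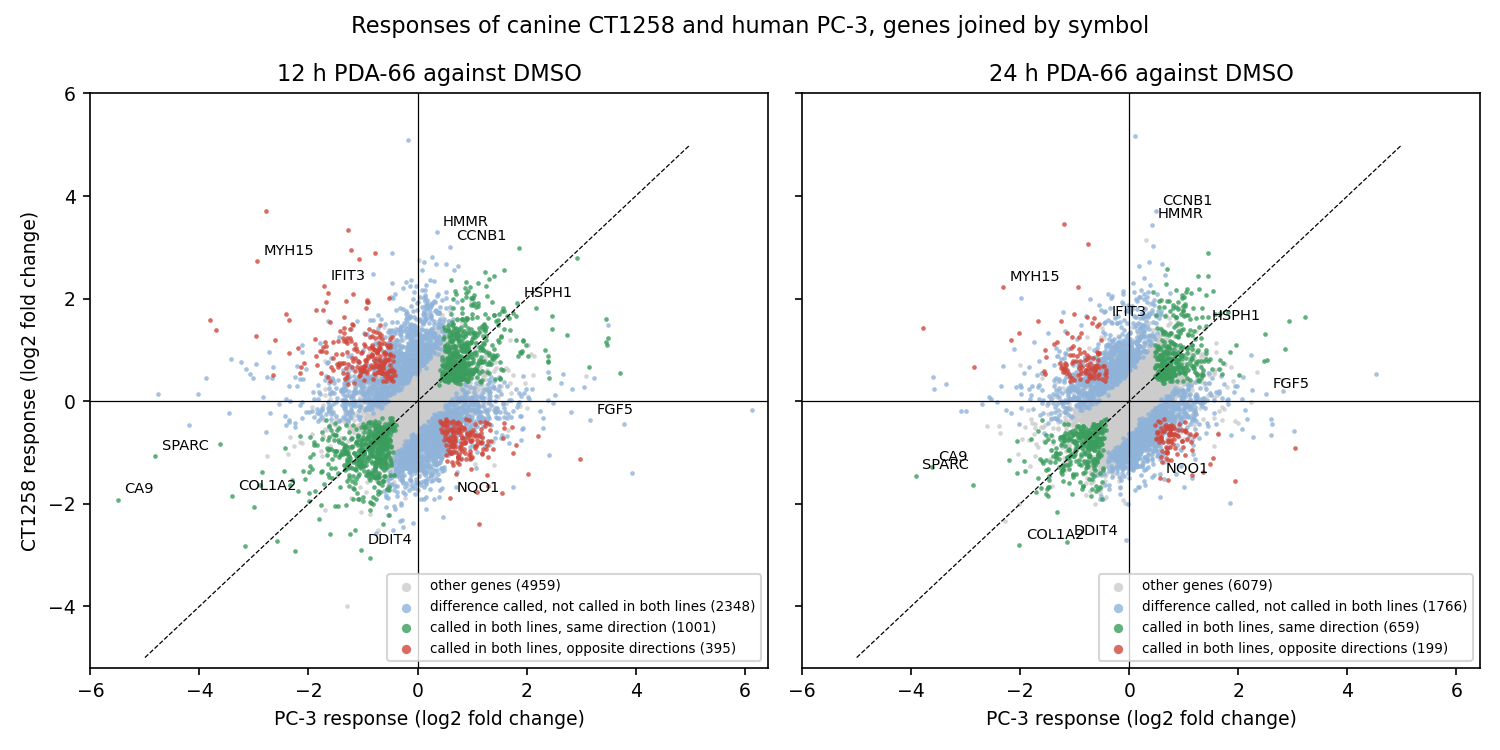
Log2 fold change of PDA-66 against DMSO in PC-3 (horizontal) and CT1258 (vertical) for 8703 genes at 12 h and 24 h, coloured by how they were called; the dashed line marks equal responses. Genes called in both lines fall mostly in the lower left and upper right (1001 and 659 genes), with 395 and 199 in the other 2 corners.

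The CT1258 response moved with the GC content of the gene, and the PC-3 response hardly did. GC content was taken from the longest protein-coding transcript of the human gene, for 8113 of the tested genes. Over these genes the CT1258 response had a Spearman correlation with GC content of -0.64 at 12 h and -0.65 at 24 h, and the PC-3 response one of -0.09 and -0.10. The eighth of genes lowest in GC, up to 38.7%, had a median CT1258 response of 0.64 at 12 h, and the eighth highest in GC, from 60.6%, a median of -0.70. The same eighths had PC-3 medians of 0.08 and -0.11. Relative to the mean of its line, the correlation with GC was 0.58, 0.64 and 0.62 in the CT1258 controls and -0.16 to -0.61 in the 6 treated CT1258 samples. In PC-3 it ran from -0.43 to 0.55, the latter in PDA-66 24 h replicate 3, with no separation of controls from treated samples. In CT1258, GC content, depth and treatment therefore moved together and cannot be told apart. With the length of the same transcript the correlation was -0.48 in CT1258 DMSO replicate 2 and -0.12 in replicates 1 and 3. It was -0.29 in PC-3 DMSO replicate 3 and 0.01 in PC-3 DMSO replicate 2.

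With smooth trends over GC content and transcript length removed from each sample, a correction added after the data were seen, 2799 genes were called different at 12 h and 2151 at 24 h. Of the uncorrected calls among the same genes, 68.5% were also called after correction at 12 h and 71.9% at 24 h, none with the opposite sign. For the CT1258 response alone these shares were 54.2% and 51.9%, and for PC-3 they were 97.6% and 97.7%. For the genes named below, of which KIRREL and CASC5 had no GC value, the corrected value is given where the correction ended the call of its difference at 12 h.

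**Figure D2:**
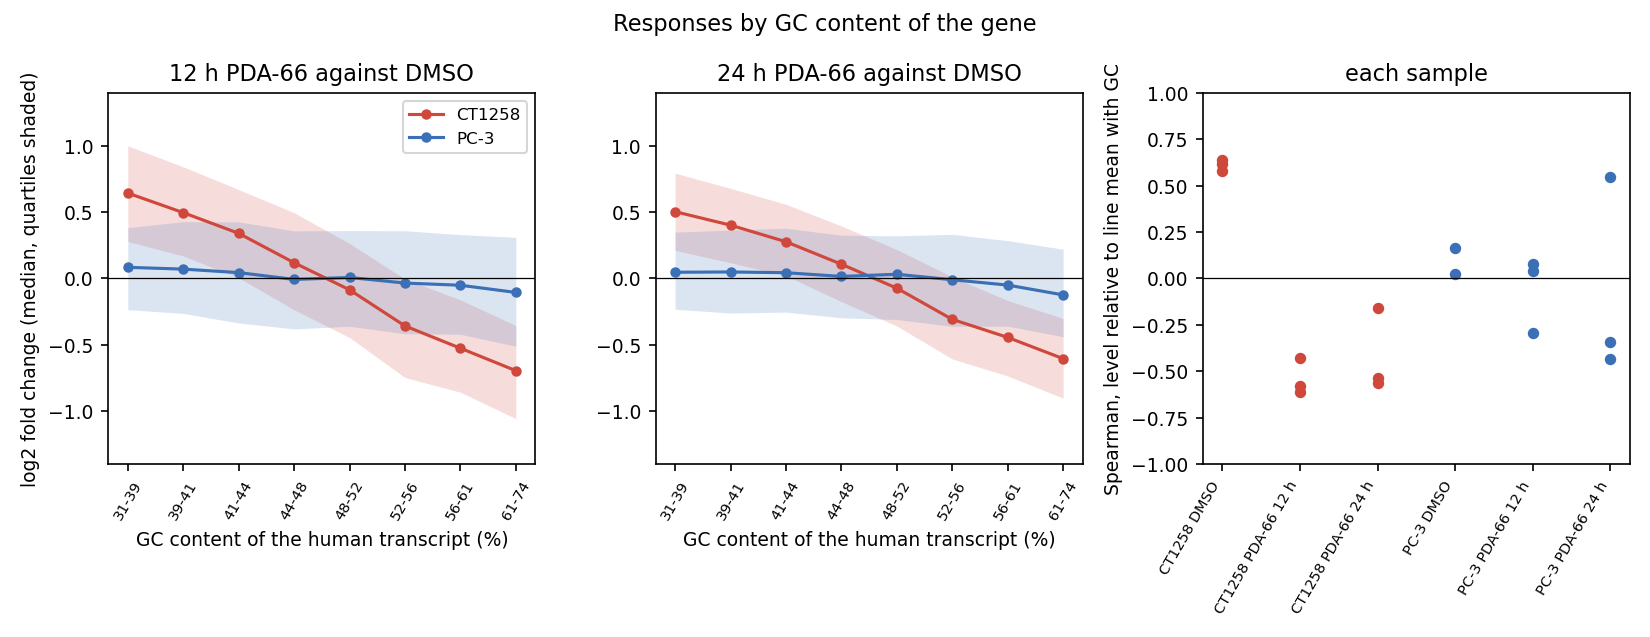
Median log2 fold change (shading: quartiles) of genes in eighths of GC content, for CT1258 and PC-3 at 12 h and 24 h, and the Spearman correlation of each sample's level, relative to the mean of its line, with GC content. The CT1258 medians fall from 0.64 to -0.70 at 12 h while those of PC-3 stay between 0.08 and -0.11, and the 3 CT1258 controls lie above 0.5 in the right panel.

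Genes that moved in opposite directions in the lines were led by MYH15, a myosin heavy chain. MYH15 was at 4.06, 3.23 and 4.32 CPM in the CT1258 controls, at 28.4, 24.7 and 24.5 after 12 h and at 18.2, 14.8 and 21.3 after 24 h. In PC-3 it was at 130 and 183 CPM in the controls, at 19.8, 20.8 and 20.6 after 12 h and at 34.8, 29.4 and 30.6 after 24 h. No treated sample overlapped the controls of its line, and the directions were opposite. The log2 fold changes at 12 h were 2.74 ± 0.16 (SE) in CT1258 and -2.94 ± 0.14 in PC-3, a difference of 5.68 ± 0.21 (edgeR adjusted p = 7.12e-14).

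PLEKHH2, a pleckstrin homology domain protein, and METTL18, a histidine methyltransferase, followed the same pattern. PLEKHH2 had a difference of 2.65 ± 0.20 at 12 h and 2.47 ± 0.21 at 24 h (edgeR adjusted p = 1.27e-09 and 9.72e-09). METTL18 was at 10.2, 12.8 and 8.73 CPM in the CT1258 controls and at 21.6 to 28.2 after 12 h, while in PC-3 it went from 39.1 and 52.5 to between 17.3 and 21.0. Its difference was 2.47 ± 0.22 at 12 h and 2.11 ± 0.22 at 24 h. The other named genes of this direction were the ribosomal protein genes RPL34, RPS15A and RPL27A.

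In the other direction ADAM12, a metalloprotease of the cell surface, was at 150, 117 and 149 CPM in the CT1258 controls and at 74.5 to 79.9 after 12 h. In PC-3 it went from 8.42 and 5.20 CPM to between 16.1 and 16.6. The treated samples of 12 h lay below the controls in CT1258 and above them in PC-3. RAD51D, a protein of homologous recombination, went from 22.3, 25.8 and 24.0 CPM to between 11.3 and 13.8 in CT1258, and from 7.25 and 6.79 to between 13.2 and 14.4 in PC-3. The differences of ADAM12 and RAD51D at 12 h were -2.12 ± 0.20 and -1.93 ± 0.18. WDFY2, a WD repeat and FYVE domain protein, and KIRREL, an adhesion protein of the nephrin family, differed by -2.19 ± 0.21 and -2.12 ± 0.27. The rise of WDFY2 in PC-3 at 24 h was 0.65 and no longer called after the correction (edgeR adjusted p = 0.00133). SNRNP25, a protein of the minor spliceosome, differed by -1.68 ± 0.19, but its fall in CT1258 was -0.27 and no longer called with the GC and length trends removed (edgeR adjusted p = 0.0105).

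In all, 88 genes (1.01%) were higher in CT1258 and lower in PC-3 at both times, and 60 (0.689%) were lower in CT1258 and higher in PC-3. The median GC content was 42.2% in the first set and 56.0% in the second, beside 47.6% over all 8113 genes. After the correction for GC content and length these sets held 86 and 81 genes, of which 35 and 22 were in the uncorrected sets as well.

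**Figure D3:**
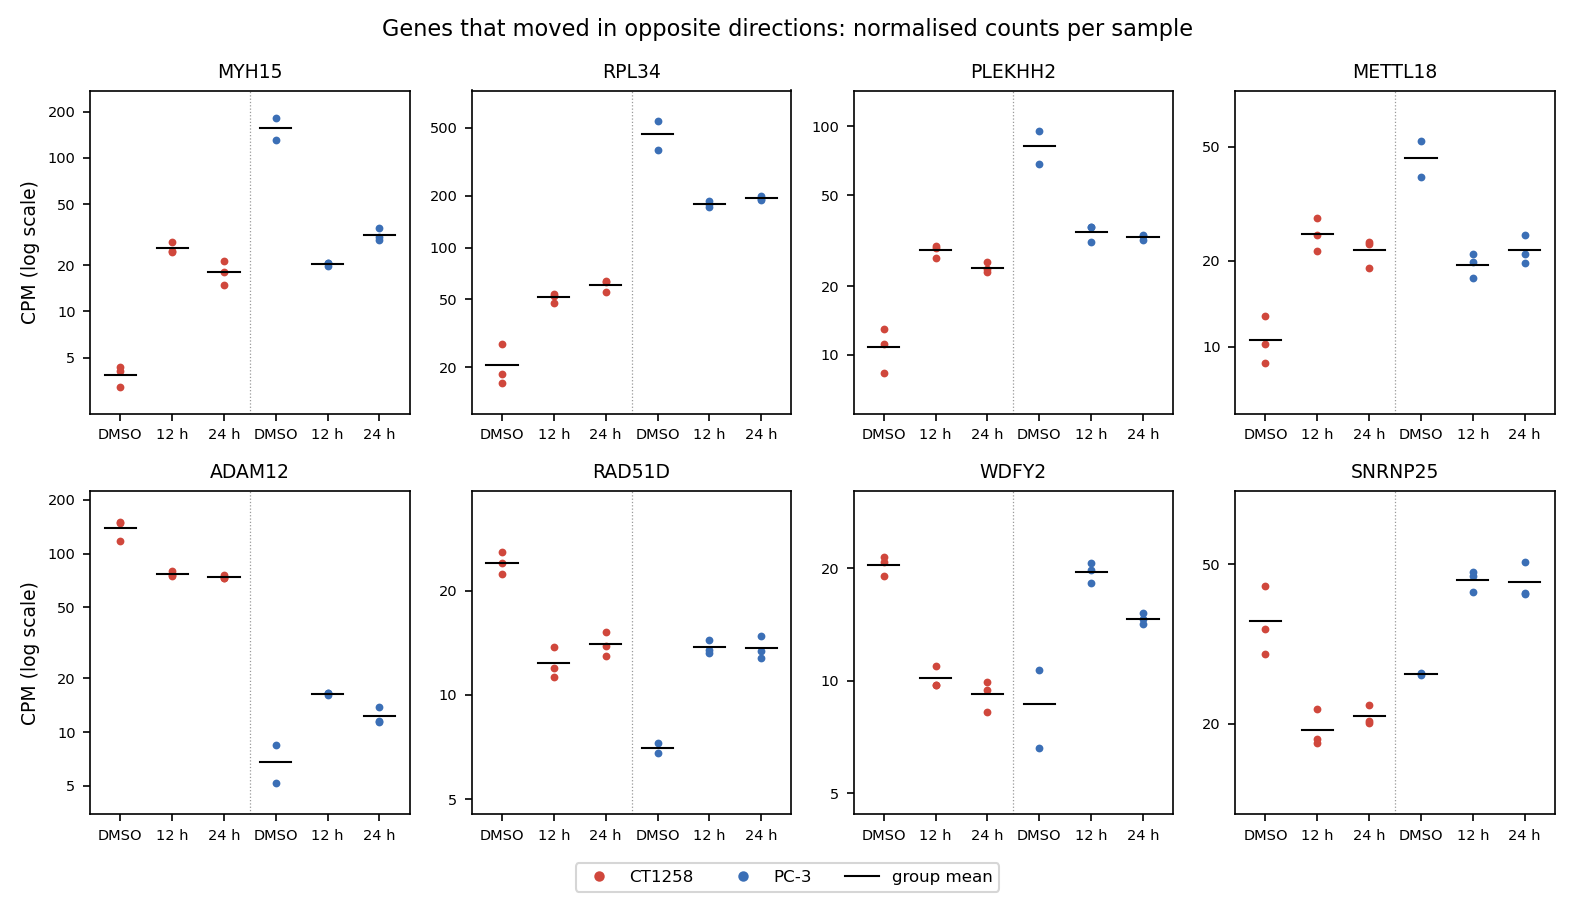
CPM of 8 genes called in opposite directions at both times, on a log axis, for each CT1258 and PC-3 sample (points) with the group mean (bar). In the upper row the CT1258 points rise and the PC-3 points fall, as for MYH15 from about 4.06 to 28.4 CPM and from 183 to 19.8 CPM; in the lower row the directions are reversed.

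Among genes that moved the same way in both lines, the highest rank by the smallest of the 4 responses was held by CENPI, RAD54B, CASC5, ANLN and HSPH1. CENPI, a centromere protein, was at 7.23, 7.81 and 7.69 CPM in the CT1258 controls and at 24.1, 25.8 and 20.3 after 12 h. PC-3 samples were at 16.0 and 13.9 CPM in the controls and at 48.2, 48.1 and 48.0 after 12 h. The treated samples lay well above the controls in both lines. Its responses at 12 h were 1.63 and 1.68, and the difference of -0.05 ± 0.17 did not pass the test (edgeR adjusted p = 0.797). RAD54B, a recombination ATPase, responded by 1.81 in CT1258 and 1.56 in PC-3, and HSPH1, a cochaperone of HSP70, by 1.91 and 1.83, with differences of 0.25 ± 0.21 and 0.08 ± 0.12.

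ANLN, the cytokinesis scaffold anillin, and CASC5, a kinetochore scaffold, rose in both lines but further in CT1258 after 24 h. The ANLN difference went from 0.01 ± 0.15 at 12 h to 0.66 ± 0.15 at 24 h (edgeR adjusted p = 0.000981), and after the GC and length correction it was -0.48, called lower, at 12 h, and 0.27, not called, at 24 h (edgeR adjusted p = 0.0351). The CASC5 difference was 0.97 ± 0.24 at 12 h, which did not pass (edgeR adjusted p = 0.0014), and 1.45 ± 0.24 at 24 h (edgeR adjusted p = 4.16e-05).

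Genes lower in both lines at both times were led by COL1A2, a chain of type I collagen. COL1A2 was at 87.0, 89.3 and 83.2 CPM in the CT1258 controls, at 25.8, 24.5 and 21.9 after 12 h and at 10.7, 14.8 and 11.7 after 24 h. In PC-3 it was at 34.1 and 56.7 CPM in the controls, at 3.80, 5.13 and 4.02 after 12 h and at 12.2, 9.49 and 12.1 after 24 h. CREB3L1, a membrane-bound factor of the secretory pathway, had responses of -1.54 in CT1258 and -2.31 in PC-3 at 12 h. ALDOC, a glycolytic aldolase, had -1.63 and -2.34, NUPR1, a stress-induced nuclear protein, -2.59 and -1.61, and ABCA1, a cholesterol exporter, -1.37 and -1.75. The same direction at both times was called at 259 genes that were higher (2.98%) and 263 that were lower (3.02%), with a median GC content of 41.7% and 58.0%. Of these, 243 and 242 had a GC value, and 151 and 130 of those were still called after the GC and length correction, when the sets held 309 and 279 genes.

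Most tested genes of mitotic entry and the spindle checkpoint had a higher response in CT1258 than in PC-3. The difference was called higher in CT1258 at 21 of 40 tested genes at 12 h and 28 at 24 h, and lower at 1 each time. Over all genes, 16.9% were called higher at 12 h and 11.9% at 24 h. The median response of the list was 1.21 in CT1258 and 0.49 in PC-3 at 12 h, and 1.65 and 0.47 at 24 h, beside medians of 0.00 over all genes. In CT1258 32 members were higher at 12 h and 37 at 24 h, beside 24.1% and 18.6% of all genes. In PC-3 19 and 14 were higher, beside 14.6% and 10.8%. No member was called in opposite directions, beside 4.54% and 2.29% of all genes. Without PC-3 DMSO replicate 2 the PC-3 counts were 9 and 10 with medians of 0.32 and 0.27, and without replicate 3 they were 20 and 16 with medians of 0.66 and 0.71. The difference was then called higher at 23 and 27 members without replicate 2 and at 17 and 24 without replicate 3. With the GC and length trends removed the difference was called higher at 15 and 28 members.

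CCNB1, the cyclin that activates CDK1 at mitotic entry, was at 13.2, 15.4 and 13.2 CPM in the CT1258 controls, at 107, 110 and 120 after 12 h and at 170, 183 and 193 after 24 h. PC-3 had it at 84.0 and 132 CPM in the controls, at 169, 174 and 146 after 12 h and at 97.5, 162 and 195 after 24 h. CT1258 samples were well separated, and in PC-3 the treated samples of 24 h overlapped the controls. The difference was 2.42 ± 0.27 at 12 h and 3.22 ± 0.27 at 24 h (edgeR adjusted p = 2.06e-07 and 1.08e-08).

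HMMR, a hyaluronan receptor that also binds the spindle, rose from 12.1, 8.16 and 12.9 CPM to between 105 and 111 in CT1258 at 12 h. In PC-3 it lay at 56.3 and 103 CPM in the controls and at 97.0 to 110 after 12 h. KIF11, the kinesin that separates spindle poles, went from 105, 104 and 101 CPM to 566, 550 and 481 in CT1258, and from 104 and 100 to 129, 114 and 119 in PC-3. The differences at 12 h were 2.95 ± 0.27 and 2.13 ± 0.14 (edgeR adjusted p = 1.22e-08 and 2.32e-10). AURKA, the Aurora kinase of spindle poles, differed by 1.22 ± 0.26 at 12 h and 2.07 ± 0.26 at 24 h, and its 12 h call ended after the GC and length correction (edgeR adjusted p = 0.00103).

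Promoters of many mitotic genes hold a cell cycle homology region (CHR), through which they are held down outside G2 and M phase. The letters TTTGAA and TTTAAA were searched on both strands in the 250 bases before the start of the human genes, in the RefSeq promoter table of build GRCh38.p14. The table held 34 of the 40 mitotic members, and 23 of them (67.6%) had a match, compared with 21.9% of all 35116 promoters and 15.0% of those of tested genes. Of the 23 with a match 10 were called higher in CT1258 at 12 h and 16 at 24 h, and of the 11 without one 6 and 7. A match describes the letters of the human promoter only, and the canine promoters were not analysed here. The last 100 bases before the start of 3 members with large differences are given 5′ to 3′ on the gene's strand, with the matches in capitals. They are at chr5:69167050-69167149 for CCNB1, chr5:163460532-163460631 for HMMR and chr10:92593030-92593129 for KIF11, each on the plus strand.
CCNB1: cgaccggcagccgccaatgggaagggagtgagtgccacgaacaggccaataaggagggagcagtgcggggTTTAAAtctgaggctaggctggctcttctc
HMMR: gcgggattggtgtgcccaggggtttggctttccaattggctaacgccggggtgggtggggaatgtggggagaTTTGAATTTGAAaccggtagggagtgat
KIF11: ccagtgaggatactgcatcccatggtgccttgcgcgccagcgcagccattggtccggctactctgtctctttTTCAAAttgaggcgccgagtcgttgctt

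In these 3 promoters the match began 30, 28 and 28 bases before the start, and HMMR had a second match directly after the first.

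Of 46 tested DNA replication and origin licensing genes, 31 were higher in CT1258 and 26 in PC-3 at 12 h. The same way in both were called 19, and the median responses were 0.60 and 0.59. At 24 h 21 were higher in CT1258 and 30 in PC-3, and 15 were called the same way. The shares of all genes were 24.1%, 14.6% and 11.5% at 12 h, and 18.6%, 10.8% and 7.57% at 24 h. The difference was called higher at 7 and lower at 5 at 12 h, and at 4 and 7 at 24 h, which is 26.1% and 23.9% of the members beside 33% and 23.5% of all genes. Without PC-3 DMSO replicate 3, 3 were higher at 12 h and 1 at 24 h. With library size alone these became 3 and 8, and 2 and 14, and with the GC and length trends removed 3 and 9, and 2 and 15, so a balance in either direction depended on scaling and correction. RNASEH2A, a subunit of the enzyme that removes RNA from DNA, went from 63.7, 89.9 and 61.0 CPM to 36.6, 34.7 and 41.9 in CT1258 at 12 h, and from 61.5 and 71.4 to 104, 119 and 119 in PC-3. Its difference was -1.71 ± 0.20, and its CT1258 response was -0.25 and no longer called after the correction (edgeR adjusted p = 0.0119). MCM5, a subunit of the replicative helicase, had responses of -0.18 in CT1258 and 1.01 in PC-3, a difference of -1.19 ± 0.16. DBF4, the activator of CDC7 kinase, differed by 1.03 ± 0.20 and ORC4, of the origin recognition complex, by 1.21 ± 0.15, but the DBF4 value was 0.44 and not called with the GC and length trends removed (edgeR adjusted p = 0.0214).

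The E2F and G1/S list had 5 members higher and 6 lower of 22 at 12 h, 50% beside 33% of all genes. CKS2, a CDK-binding subunit, differed by 1.39 ± 0.24, CDKN2C, a CDK4 and CDK6 inhibitor, by 1.45 ± 0.17, and CDK6 itself by -1.43 ± 0.24. E2F5, a repressive E2F, differed by 1.32 ± 0.19. In the Fanconi and homologous recombination list 9 were higher and 4 lower of 32 at 12 h, 40.6% beside 33% of all genes. With the GC and length trends removed this split was 7 and 6 of 31, and the median difference went from 0.20 to -0.14. BRCA2, a mediator of homologous recombination, rose in both lines, from 36.5, 26.9 and 42.0 CPM to 217, 217 and 169 in CT1258 and from 16.3 and 15.2 to 38.7, 34.8 and 37.6 in PC-3 at 12 h. Its difference was 1.28 ± 0.22 (edgeR adjusted p = 4.1e-05). FANCE, of the Fanconi core complex, and SLX4, a nuclease scaffold, differed by -1.47 ± 0.17 and -1.22 ± 0.15.

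Genes of cytosolic ribosomal proteins fell together in PC-3 and split in CT1258. In PC-3, 37 of 39 tested members were lower at 12 h and 37 at 24 h, beside 15.5% and 11.2% of all genes. None was higher, and the median response was -1.15 and -1.09. In CT1258 12 were higher and 17 lower at 12 h, beside 24.1% and 24.3% of all genes. At 24 h 15 were higher and 15 lower, beside 18.6% and 19.7%. The CT1258 medians were -0.24 at 12 h and -0.09 at 24 h. Without CT1258 DMSO replicate 2 this split was 16 and 15 at 12 h and 17 and 14 at 24 h, with medians of -0.14 and 0.02. The difference was called higher in CT1258 at 22 members at 12 h and 23 at 24 h, beside 16.9% and 11.9% of all genes. It was called lower at none by edgeR's quasi-likelihood test. These counts were 22 and 23 with library size alone, with 1 TMM scaling over both lines and with DESeq2 size factors. After the GC and length correction 28 and 30 were higher and none lower. Without PC-3 DMSO replicate 2 or replicate 3 the 12 h count was 23 and 21.

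RPL34, a protein of the large subunit, was at 18.3, 27.2 and 16.1 CPM in the CT1258 controls and at 47.6, 52.4 and 53.9 after 12 h. PC-3 levels stood at 368 and 548 CPM in the controls and at 186, 180 and 173 after 12 h. The difference was 2.67 ± 0.22 (edgeR adjusted p = 3.26e-09). RPS15A, of the small subunit, went from 136, 148 and 145 CPM to 318, 310 and 343 in CT1258, and from 543 and 763 to 261, 261 and 246 in PC-3. RPL31 went from 5.60, 6.17 and 5.41 CPM to 42.0, 35.6 and 50.1 in CT1258, a difference to PC-3 of 3.67 ± 0.20. RPS24 stood at 0.149 to 0.298 CPM in the CT1258 controls and at 3755 and 5078 CPM in those of PC-3. Ribosomal protein genes have many near-identical processed pseudogenes, reads that match several places can be split or dropped, and how they were treated is not given in the sources used here, so these levels are uncertain, most of all for RPS24 and RPL31.

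Among ribosome biogenesis genes 2 were higher and 5 lower of 29 at 12 h and 3 and 3 at 24 h, 24.1% and 20.7% beside 33% and 23.5% of all genes. NPM1, the nucleolar protein nucleophosmin, rose from 48.5, 63.3 and 47.5 CPM to 251, 252 and 252 in CT1258 and was at 1023 and 1384 CPM in the PC-3 controls and 1139 to 1250 after 12 h. Its difference was 2.27 ± 0.17. NPM1 too has many processed pseudogenes. MYC, a factor that drives ribosome genes, fell in PC-3 from 746 and 816 CPM to between 209 and 232, and was at 391, 528 and 393 in the CT1258 controls and 311 to 357 after 12 h. The MYC difference was 1.45 ± 0.15 at 12 h and 0.74 ± 0.15 at 24 h. RRP12 and POLR1A, of ribosomal RNA maturation and synthesis, differed by -1.19 ± 0.15 and -1.07 ± 0.23.

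Targets of ATF4 and amino acid stress fell in CT1258 and changed less in PC-3. At 12 h 27 of 30 tested members were lower in CT1258 and 1 higher, while in PC-3 10 were lower and 2 higher. Among all genes 24.3% were lower and 24.1% higher in CT1258, and 15.5% and 14.6% in PC-3. The list medians were -1.26 and -0.35. The difference was called lower in CT1258 at 21 members at 12 h and 8 at 24 h, and higher at none by edgeR's quasi-likelihood test, beside 16.1% and 11.6% of all genes called lower. The members with a GC value had a median GC content of 54.4%, above the 47.6% of all genes. After the correction 15 of these 24 were called lower at 12 h, as before it. Without PC-3 DMSO replicate 2, 18 of 30 were lower and 1 higher at 12 h, and 3 were higher at 24 h.

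SLC3A2, the heavy chain of amino acid transporters, was at 459, 624 and 482 CPM in the CT1258 controls, at 104, 99.6 and 97.9 after 12 h and at 187, 207 and 195 after 24 h. In PC-3 it lay at 326 and 357 CPM in the controls and at 312 to 335 after 12 h. The treated CT1258 samples were far below their controls, and those of PC-3 overlapped theirs at 12 h. The difference was -2.29 ± 0.16 at 12 h and -1.18 ± 0.16 at 24 h (edgeR adjusted p = 3.61e-10 and 3.4e-06). PCK2, mitochondrial phosphoenolpyruvate carboxykinase, went from 651, 799 and 694 CPM to 142, 138 and 153 in CT1258 and from 50.8 and 52.0 to between 40.8 and 44.5 in PC-3. CEBPB, a leucine zipper factor, differed by -2.05 ± 0.28. DDIT4, an inhibitor of mTORC1, fell in both lines, by 2.90 on the log2 scale in CT1258 and by 1.03 in PC-3 at 12 h.

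Most tested NRF2 targets had a lower response in CT1258 than in PC-3. At 12 h 11 of 14 tested members were lower in CT1258 and 1 higher, while in PC-3 5 were higher and 1 lower. Among all genes 24.3% were lower and 24.1% higher in CT1258, and 14.6% were higher and 15.5% lower in PC-3. The list medians were -0.73 and 0.30. The difference was lower in CT1258 at 9 members at 12 h and 7 at 24 h, beside 16.1% and 11.6% of all genes. It was higher at 1 each time, and after the GC and length correction it was lower at 11 and 10 members. NQO1, a quinone reductase, was at 2664, 2626 and 2570 CPM in the CT1258 controls, at 717, 722 and 687 after 12 h and at 790, 1028 and 955 after 24 h. In PC-3 it was at 142 and 119 CPM in the controls, at 198, 200 and 194 after 12 h and at 185, 198 and 194 after 24 h. No treated sample overlapped its controls. The difference was -2.48 ± 0.15 at 12 h (edgeR adjusted p = 4.36e-11). OSGIN1, an oxidative stress response gene, differed by -2.72 ± 0.20, and SLC7A11, the cystine transporter, by -1.80 ± 0.28 at 12 h and by -0.60 ± 0.26 at 24 h, which did not pass (edgeR adjusted p = 0.0553).

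Of 18 tested chaperones of the endoplasmic reticulum the difference was called higher at 1 and lower at 3 at 12 h and higher at 4 at 24 h, 22.2% each time beside 33% and 23.5% of all genes. CALR, the lectin chaperone calreticulin, was at 1891, 2112 and 1859 CPM in the CT1258 controls, at 530, 541 and 526 after 12 h and at 844, 888 and 914 after 24 h. In PC-3 the controls were at 2633 and 1068 CPM, and the samples at 1948 to 2140 after 12 h and 857 to 1096 after 24 h. The difference of -2.02 ± 0.28 at 12 h was -0.22 ± 0.28 at 24 h. EDEM1, of the degradation of misfolded proteins, differed by 1.58 ± 0.16. SDF2L1 differed by -1.58 ± 0.26, and by -0.94 with the GC and length trends removed, which did not pass (edgeR adjusted p = 0.00435).

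Of 19 tested heat shock chaperones 12 were higher in CT1258 and 11 in PC-3 at 12 h, 10 of them in both. Among all genes 24.1% were higher in CT1258, 14.6% in PC-3 and 5.68% in both. The list medians were 0.86 and 0.60. Between the lines 2 differed higher and 4 lower, 31.6% beside 33% of all genes. HSP90AA1, the inducible HSP90, went from 433, 522 and 429 CPM to 1919, 1894 and 1781 in CT1258 and from 2500 and 2522 to 5202, 4976 and 4969 in PC-3, a difference of 1.01 ± 0.14. CRYAB, a small heat shock protein, differed by 1.35 ± 0.28 and HSPB1, another, by -1.20 ± 0.19. HSF1, the heat shock transcription factor, differed by -1.01 ± 0.16, and by -0.38 and not called after the GC and length correction (edgeR adjusted p = 0.00145).

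Of 19 tested interferon-stimulated genes 13 had a higher response in CT1258 than in PC-3 at 12 h and 4 at 24 h, beside 16.9% and 11.9% of all genes. At 12 h 11 members were higher and 2 lower in CT1258, 10 were lower and none higher in PC-3, and 6 were called in opposite directions. Among all genes 24.1% were higher and 24.3% lower in CT1258, 15.5% lower and 14.6% higher in PC-3, and 4.54% opposite. The list medians were 0.97 and -0.83. The difference was lower in CT1258 at 1 member at 24 h, where its median was 0.02. After the GC and length correction 12 were higher at 12 h.

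IFIT3, an antiviral protein induced by interferon, was at 1.49, 1.34 and 2.13 CPM in the CT1258 controls, at 9.59, 8.40 and 5.48 after 12 h and at 5.77, 4.19 and 4.47 after 24 h. The PC-3 samples lay at 110 and 120 CPM in the controls, at 36.8, 34.6 and 34.0 after 12 h and at 83.3, 88.9 and 82.4 after 24 h. The treated samples lay above the controls in CT1258 and below them in PC-3 at both times. The difference was 3.95 ± 0.24 at 12 h and 1.98 ± 0.26 at 24 h (edgeR adjusted p = 5.64e-11 and 2.85e-06).

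OAS1, which makes the activator of RNase L, was at 34.9, 44.3 and 36.2 CPM in the CT1258 controls, at 88.9, 90.1 and 92.0 after 12 h and at 44.4, 39.0 and 37.3 after 24 h. PC-3 had it at 58.7 and 61.0 CPM in the controls, at 22.4, 22.9 and 24.6 after 12 h and at 30.7, 35.7 and 38.9 after 24 h. In CT1258 the 24 h samples overlapped the controls again, and in PC-3 they did not. The difference was 2.59 ± 0.16 at 12 h and 0.84 ± 0.16 at 24 h. PARP9, an interferon-induced ADP-ribosyltransferase partner, differed by 2.41 ± 0.14 and 0.86 ± 0.15, and IFI44L by 3.85 ± 0.31 and 1.33 ± 0.35, the latter not called (edgeR adjusted p = 0.00361). IFIT3 and IFI44L were low in CT1258, with controls between 1.34 and 2.13 CPM, and IFI44L was at 14.7 and 9.15 CPM in the PC-3 controls.

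**Figure D4:**
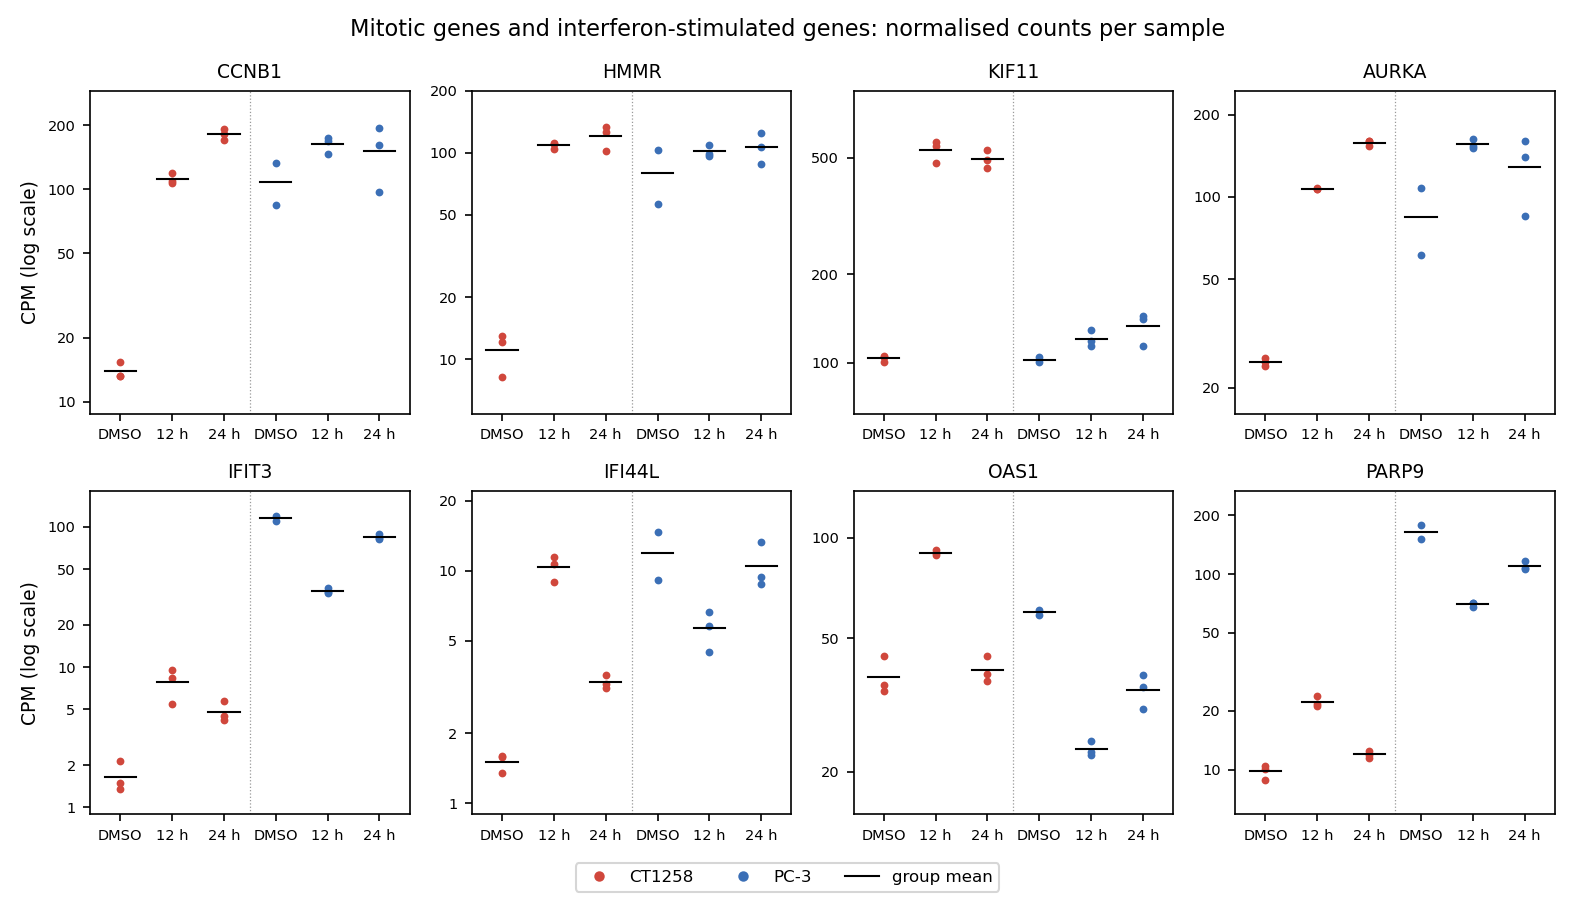
CPM of 4 mitotic genes and 4 interferon-stimulated genes, on a log axis, for each CT1258 and PC-3 sample (points) with the group mean (bar). CCNB1, HMMR, KIF11 and AURKA rise strongly in CT1258, as CCNB1 from 13.2 to 193 CPM, and the lower row rises in CT1258 and falls in PC-3 at 12 h, with smaller shifts at 24 h.

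The interferon-stimulated response element binds factors that carry the interferon signal. The letters GAAA, any 2 bases and GAAA again were searched on both strands in the same 250 bases. Of 16 interferon-stimulated members with a promoter there, 8 (50%) had a match, compared with 3.02% of all promoters and 2.36% of those of tested genes. Of those 8, 5 were called higher in CT1258 at 12 h, and of the 8 without a match 6 were. The last 180 bases before the start of IFIT3 (chr10:89327817-89327996, plus strand) and IFI44L (chr1:78620268-78620447, plus strand) each held 2 matches, in capitals.
IFIT3: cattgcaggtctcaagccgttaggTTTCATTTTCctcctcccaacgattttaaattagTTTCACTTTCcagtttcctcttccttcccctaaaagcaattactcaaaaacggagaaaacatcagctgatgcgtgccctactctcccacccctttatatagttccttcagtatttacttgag
IFI44L: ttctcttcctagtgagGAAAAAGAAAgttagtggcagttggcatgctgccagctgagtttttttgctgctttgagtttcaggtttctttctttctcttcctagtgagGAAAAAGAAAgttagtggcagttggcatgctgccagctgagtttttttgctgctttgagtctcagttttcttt

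Several hypoxia targets fell further in PC-3 than in CT1258. At 12 h 9 of 18 were lower in CT1258 and 12 in PC-3, beside 24.3% and 15.5% of all genes. The difference was called higher in CT1258 at 7 and lower at 4 at 12 h, and at 7 and 2 at 24 h. That was 61.1% and 50% of the list, beside 33% and 23.5% of all genes. Without CT1258 DMSO replicate 2, 10 were higher at 12 h. CA9, a carbonic anhydrase induced by hypoxia, was at 533, 687 and 485 CPM in the CT1258 controls and at 143, 160 and 147 after 12 h. In PC-3 it was at 43.8 and 55.3 CPM in the controls and at 1.09, 0.962 and 1.22 after 12 h, with 3.83 to 4.30 after 24 h. The difference was 3.57 ± 0.22 at 12 h and 2.34 ± 0.19 at 24 h (edgeR adjusted p = 8.32e-11 and 5.77e-09). MXI1, an antagonist of MYC, and NDRG1, a stress-induced protein, fell in PC-3, by 1.60 and by 2.12 on the log2 scale, with differences of 2.00 ± 0.13 and 1.79 ± 0.15. LOX, which crosslinks collagen, differed by 1.06 ± 0.18 at 12 h, and by 0.56 and not called after the GC and length correction.

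Matrix genes and growth signals held some large differences. SPARC, a collagen-binding matrix protein, fell in CT1258 from 117, 113 and 111 CPM to 47.0, 62.4 and 52.5 at 12 h, and in PC-3 from 45.3 and 34.2 to 1.03, 1.60 and 1.63, a difference of 3.74 ± 0.23. COL5A2, a chain of type V collagen, fell in PC-3 alone among the calls, with a difference of 1.73 ± 0.15. Of 21 tested matrix and integrin genes 4 were higher and 4 lower at 12 h and 5 and none at 24 h, 38.1% and 23.8% beside 33% and 23.5% of all genes. In the list of AP-1 and EGR immediate early genes 6 were higher and 2 lower of 25 at 12 h and 1 and 2 at 24 h, 32% and 12%. EGR1, DUSP6 and DUSP5, feedback genes of growth factor signalling, differed by 2.53 ± 0.42, 1.48 ± 0.14 and 1.43 ± 0.26 at 12 h. EGR1 was at 20.6 and 90.0 CPM in the 2 PC-3 controls, so its value rests on controls that differed more than 4-fold.

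FGF5, a fibroblast growth factor, rose in PC-3 only among the calls, from 7.87 and 8.39 CPM to 77.1, 71.1 and 71.0 at 12 h. In CT1258 it was at 69.7 to 80.2 CPM in the controls and at 60.2, 54.9 and 59.6 after 12 h. The difference was -3.53 ± 0.16 at 12 h and -2.37 ± 0.16 at 24 h (edgeR adjusted p = 7.7e-13 and 6.36e-10). IGFBP4, which binds insulin-like growth factors, rose in PC-3 from 58.0 and 42.5 CPM to 174, 201 and 180, and in CT1258 fell by 24 h from 17.4, 17.7 and 18.2 to 7.36, 8.25 and 7.18. TNFAIP3, an inhibitor of NF-κB signalling, rose in both lines, from 12.4, 10.2 and 10.2 CPM to 24.2, 25.1 and 23.8 in CT1258 and from 2.97 and 3.12 to 37.1, 33.0 and 30.7 in PC-3. In the cytokine and chemokine list 1 was higher and 4 lower of 10 at 12 h, and 2 and 4 at 24 h. That was 50% and 60% of the list, beside 33% and 23.5% of all genes. IL11 and MMP1, a cytokine and a collagenase, differed by -2.27 ± 0.26 and 2.12 ± 0.20. NAV1, a microtubule-binding neuron navigator, BRI3BP, a mitochondrial protein, and ARMC9, a ciliary protein, complete the named differences with -2.72 ± 0.24, -2.24 ± 0.19 and 2.49 ± 0.19 at 12 h.

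Cholesterol and fatty acid synthesis genes differed at 3 of 26 tested members at 12 h and 8 at 24 h, all lower in CT1258. That was 11.5% and 30.8% of the list, beside 16.1% and 11.6% of all genes called lower. At 12 h 8 were lower without PC-3 DMSO replicate 2. The 24 h count was 14 without PC-3 DMSO replicate 2 and 2 without replicate 3. ACAT2, a cytosolic thiolase, went from 170, 185 and 166 CPM to 85.0, 78.1 and 94.5 in CT1258 and from 28.0 and 21.5 to 37.7, 36.8 and 37.0 in PC-3, a difference of -1.60 ± 0.15. NSDHL, an enzyme of late cholesterol synthesis, differed by -0.94 ± 0.16. In oxidative phosphorylation 4 were higher and 5 lower of 30 at 12 h, 30% beside 33% of all genes. The complex I subunit NDUFB5 differed by 1.85 ± 0.26 and the complex I subunits NDUFS8, NDUFS7 and NDUFV1 by -1.32 ± 0.18, -1.28 ± 0.21 and -1.24 ± 0.17. The GC content of the human transcripts of NDUFS8 and NDUFB5 was 63.5% and 39.8%, and after the correction 2 were higher and 9 lower of the 25 members with a GC value.

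Tubulins form the microtubules of the spindle. The tubulin list held 8 tested members, among them TTC5, which is not itself a tubulin. Of these 8, 3 were higher and 2 lower at 12 h, and 2 and 1 at 24 h. That was 62.5% and 37.5% of the list, beside 33% and 23.5% of all genes. TUBB4B fell in PC-3 from 880 and 852 CPM to 335, 361 and 349 at 12 h and was at 342, 412 and 342 in the CT1258 controls and 347, 373 and 373 after 12 h, a difference of 1.31 ± 0.15. TUBB4A differed by 1.07 ± 0.19 and TUBB by 0.64 ± 0.13, while TUBA1B, at -0.25 ± 0.18, TUBB2B and TUBB1 did not pass. TUBB6 differed by -0.93 ± 0.16, which ended after the GC and length correction (edgeR adjusted p = 0.00187). TTC5, the factor that degrades tubulin mRNA when free tubulin is in excess, differed by -1.48 ± 0.17. TTC5 and TUBB6 were the 2 members called lower at 12 h. Without PC-3 DMSO replicate 2, 1 was higher and 2 lower at 12 h. Tubulin genes are close copies of each other, so reads may have been shared between them.

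Among p53 targets 2 were higher and 7 lower of 22 at 12 h, 40.9% beside 33% of all genes. At 24 h 2 were higher and 4 lower, 27.3% beside 23.5% of all genes. CCNG1, cyclin G1, rose in CT1258 from 84.3, 81.2 and 81.5 CPM to 181, 176 and 172 and fell in PC-3 from 187 and 242 to 124, 124 and 112, a difference of 1.94 ± 0.15. SFN, the checkpoint protein 14-3-3 sigma, differed by -1.79 ± 0.14, GADD45A, of the damage response, by -1.74 ± 0.26 and BAX, which opens the mitochondrial outer membrane, by -1.50 ± 0.19. In the BCL2 family 3 were higher and 2 lower of 8 at 12 h, 62.5% beside 33% of all genes. BCL2A1, an inhibitor of apoptosis, rose in PC-3 from 0.345 and 0.693 CPM to 6.79, 6.87 and 7.11, a difference of -3.16 ± 0.31 on few control reads. MCL1, another, differed by 1.14 ± 0.11, and BCL2 by 1.21 ± 0.25 at 12 h and -0.06 ± 0.26 at 24 h. Among autophagy, lysosome and FOXO targets 2 were higher and 8 lower of 24 at 12 h, 41.7% beside 33% of all genes. SQSTM1, the autophagy receptor p62, differed by -1.66 ± 0.14, FOXO4, a forkhead factor, by 1.67 ± 0.24 and TXNIP, the thioredoxin inhibitor, by -0.80 ± 0.18.

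Wnt feedback targets, which β-catenin drives, differed at 5 of 10 tested members at 12 h, 50% beside 33% of all genes. Of these, 2 were higher and 3 lower. AXIN2, the classical feedback inhibitor, was at 8.17, 7.11 and 7.94 CPM in the CT1258 controls and at 13.6, 15.2 and 13.8 after 12 h. PC-3 samples were at 1.17 and 0.555 CPM in the controls and at 4.18, 4.36 and 5.25 after 12 h. The difference was -1.52 ± 0.31 at 12 h and -1.86 ± 0.32 at 24 h, from few reads in the PC-3 controls. TCF7L2, a partner of β-catenin, differed by 1.20 ± 0.17 and the adhesion receptor CD44 by -0.74 ± 0.13. Of 5 tested targets of the aryl hydrocarbon receptor NQO1 alone was called at 12 h, 20% beside 33% of all genes. After the GC and length correction 3 were lower.

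**Figure D5:**
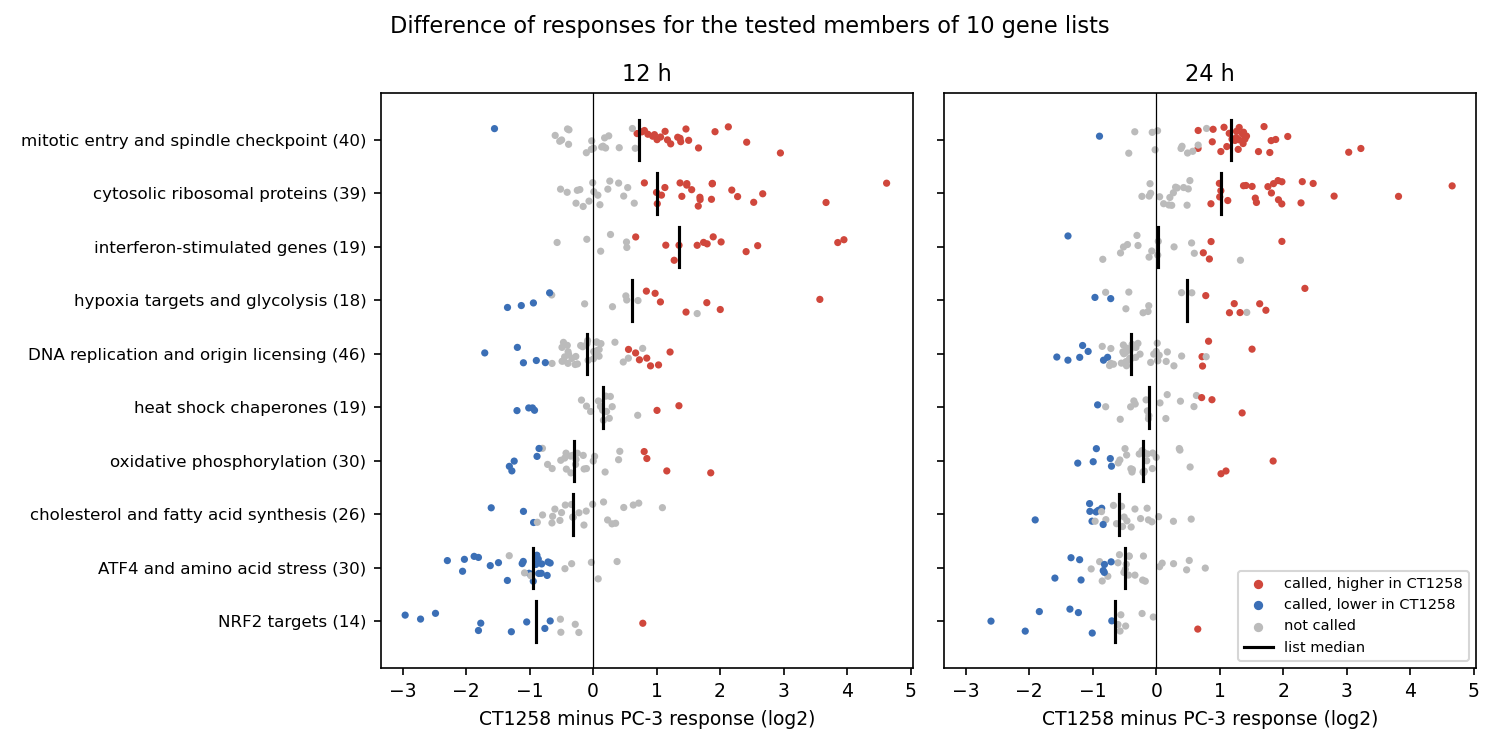
CT1258 minus PC-3 response (log2) for the tested members of 10 gene lists at 12 h and 24 h; points are genes, coloured by call, and bars are list medians. Mitotic genes lie to the right at both times (medians 0.73 and 1.17), the interferon-stimulated genes at 12 h but not at 24 h (1.35 and 0.02), and ATF4 and NRF2 targets to the left (-0.95 and -0.90 at 12 h).

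The difference between the lines changed from 12 h to 24 h at 148 genes (1.7%), higher after 24 h at 55 (0.632%) and lower at 93 (1.07%). A difference of the same sign was called at both times at 894 genes higher (10.3%) and 810 lower (9.31%). Without 1 sample this count ran from 68, without the PC-3 12 h sample P12-2 (named by its column, as its replicate number was unclear), to 311, without CT1258 DMSO replicate 2, and it was 414 after the GC and length correction. This test compares the treated samples only, so the DMSO samples enter it through the shared estimate of spread. FST, follistatin, which binds activins, was lower in CT1258 at 12 h (21.8, 23.3 and 20.3 CPM) than at 24 h (41.3, 46.0 and 47.4), with controls at 38.7, 48.6 and 37.7. The PC-3 samples lay at 510, 486 and 496 CPM after 12 h and 266, 266 and 281 after 24 h, with controls at 184 and 232. Its difference changed by 1.91 ± 0.16 (edgeR adjusted p = 1.6e-07). SPRY1, a feedback inhibitor of receptor tyrosine kinases, changed by -1.92 ± 0.15, from 37.6, 39.7 and 39.3 CPM to 21.8, 18.5 and 21.7 in CT1258 and from 42.6, 39.0 and 43.5 to 85.8, 83.9 and 82.2 in PC-3. COL1A2 changed by -2.35 ± 0.26, CALR by 1.80 ± 0.26, CRELD2, an endoplasmic reticulum protein, by 1.71 ± 0.28 and OAS1 by -1.76 ± 0.15.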

How the data were processed

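RNA-seq reads per gene were deposited by the authors as raw counts, 1 table for each cell line. Per the submitters' processing notes STAR 2.3.1s, BWA and edgeR 3.14.0 were used, with the builds hg19 and CanFam3.1. Whether counting used strand, and how reads matching several places were treated, is not given in the sources used here. Trailing separators in 1 PC-3 column were removed. Tables were joined by exact symbol, and genes passing filterByExpr in both lines were kept. TMM factors were computed within each line, and 6 group means were fitted over 17 samples with the quasi-likelihood test of edgeR 4.0.16 in R 4.3.3. p-values were adjusted over all tested genes (threshold 0.001). Log2 fold changes are given ± SE. The fit was tested on simulated data. DESeq2 1.42.0 and limma 3.58.1 served as alternatives. Those for GC content and length were added after the data were seen. Total counts per sample set the precision.

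Named genes were at least 10 CPM on average in each line: the 6 per direction with the largest smallest response among opposite genes, 5 per direction among shared genes, 6 per direction among differences and 3 per direction for change over time. From each gene list up to 4 called members with at least 1 CPM, and every tested member of the tubulin list, were taken. Further genes named from a list, RPS24 among them, were chosen after their values were seen. A few genes that this rule names are not reported here. The comparison, the members and the lists were chosen with earlier results of these data known.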

Additional observations from a re-analysis of the deposited data

Results flagged for a closer look

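The responses of the 2 lines differed by a test of the difference itself at 2876 genes at 12 h and 2042 at 24 h, and the difference changed between the times at 148 genes. Values below are the change of the CT1258 minus PC-3 difference from 12 h to 24 h on the log2 scale, each past an edgeR adjusted p of 0.001. It was higher after 24 h for FST by 1.91, CALR by 1.80, CRELD2 by 1.71, FGF5 by 1.16, SLC3A2 by 1.11, SQSTM1 by 1.07, TUBB6 by 0.92, SFN by 0.90 and PCK2 by 0.82. Values were -2.53 for IFI44L, -2.35 for COL1A2, -1.97 for IFIT3, -1.92 for SPRY1, -1.76 for OAS1, -1.55 for PARP9, -1.27 for BCL2, -1.15 for MYH15 and -1.12 for DUSP6. The MYH15 value was -1.08 and no longer called with the GC and length trends removed (edgeR adjusted p = 0.00159). The interferon-stimulated genes among them, IFI44L, IFIT3, OAS1 and PARP9, all had smaller differences after 24 h than after 12 h. Groups held 2 or 3 samples, so single samples were not tested for lying apart.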

How the results depend on the processing

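Counts below are for the difference, the same direction and opposite directions at 12 h, then at 24 h, then the change over time. At an adjusted p under 0.05 they were 5127, 2263, 1219, 4390, 1906, 927 and 1225, and with an absolute log2 value of at least 1 required they were 1776, 196, 54, 1148, 108, 21 and 74. With the LNCaP samples added they were 1178, 311, 129, 642, 145, 51 and 19. With only the groups of the time, the 24 h counts were 1213, 360 and 92. The change over time was 403 by the DESeq2 Wald test, 412 by edgeR's likelihood ratio test, 2049 by limma voom with sample quality weights and 414 with the GC and length trends removed. Opposite genes at 24 h were 301 by the likelihood ratio test and 132 with each line fitted on its own. For these shifts the cause was not tested. Leaving out 1 sample gave 2321 to 3188, 743 to 1208, 287 to 486, 1511 to 2295, 461 to 830, 129 to 267 and 68 to 311, each highest without CT1258 DMSO replicate 2. With a replicate block, over the 15 samples with a clear number, the counts were 1066, 255, 72, 1142, 263, 72 and 3. That fit left out P12-1 and P12-2, whose replicate numbers were unclear, so P12-3 alone stood for PC-3 at 12 h. With no replicate in that group and fewer samples, the lower counts cannot be put down to the block itself. Deviations from the group mean correlated at -0.28 to 0.19 between samples with the same number and at -0.26 to 0.30 between other samples. P12-1 and P12-2 were left out, and the deviations of the 2 PC-3 controls mirror each other by construction. Whether the numbers pair the samples therefore cannot be decided from these values. No difference of a named gene changed sign among its called values in these alternatives. Depth limits the CT1258 PDA-66 samples most, at 7203534 counts in the shallowest, and genes under 1 CPM there rest on few reads.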

Other observations

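The 9 samples of LNCaP, a human prostate carcinoma line, were fitted together with the others for the 11 genes named above as opposite in CT1258 and PC-3. None of the 11 was called in LNCaP at an edgeR adjusted p of 0.001. The authors reported far fewer changed genes in LNCaP than in PC-3 or CT1258. The share of all genes called in LNCaP in this fit is not given here. The lack of calls is therefore not shown to be particular to these 11 genes. The LNCaP response of MYH15 was 0.74 at 12 h (edgeR adjusted p = 0.0292) and -0.09 at 24 h (edgeR adjusted p = 0.868). RPL34 had -0.02 and -0.06, SNRNP25 0.91 and 0.43, and WDFY2 0.63 and 0.34. A p that misses the threshold does not show that these genes did not respond in LNCaP.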
